A study of Mus musculus with 6 samples.

Results

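The sites of Foxa1 and of Foxa2 were compared in mouse prostate tumor cells after 6 months of tamoxifen, region by region and gene by gene. All samples were from C57BL/6 mice, and the Foxa1 and Foxa2 libraries used here were both made after tamoxifen for 6 months. They differed in the antibody, which was raised to FOXA1 in 1 library and to FOXA2 in the other. The sources used here name neither the genes that tamoxifen acted on nor the age of the animals. The protocol pools chromatin from 3 prostates, so that tumour, stroma and vessels enter together, and whether the antibodies were applied to the same 3 prostates is not given. The series holds 6 libraries, 1 a group: Foxa1, Foxa2 and input after 2 weeks and after 6 months. Chromatin immunoprecipitation and sequencing (ChIP-seq) lists stretches of genome, here called regions, where fragments bound by an antibody pile up, and the summit of a region is the base of highest pile-up.

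Members were chosen by sample label: every region of the 6-month Foxa1 and Foxa2 lists on the chromosomes 1 to 19. There were 35630 Foxa1 and 34729 Foxa2 regions, 70359 of the 125055 regions in the 4 lists of the series. With 1 library a side no difference has a replicate check and no test between the factors was made. Read depth is unknown from these lists. Intervals given below (95%) cover counting error only, and regions of 1 library are not replicates. A region that is missing from a list fell below the caller's threshold, which is not the same as no binding. Region lists do not measure expression, so the labelled cell type was described only by where the factors sat: 12 of 18 luminal genes, 7 of 14 basal genes, 8 of 10 endothelial genes, 4 of 12 stromal genes, 1 of 12 immune genes and 0 of 12 seminal vesicle and urothelial genes had a region of either factor. For comparison, 8267 of all 21887 protein-coding genes in the gene set had one. This set includes genes on X and Y, which could have no region here, whereas the list members counted lie on chromosomes 1 to 19.

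Foxa1 and Foxa2 are closely related forkhead proteins whose winged-helix domain binds DNA in much the same way. Both are called pioneer factors because they can bind their sites on nucleosomes and make chromatin accessible to other proteins. In the adult prostate Foxa1 is found in luminal cells, where it works beside the androgen receptor, whereas Foxa2 is known from the developing prostate bud and from neuroendocrine prostate tumours. Their shared recognition sequence centres on the letters TGTTTAC.

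Sequence around summits was available for promoters. In the RefSeq promoter windows (GRCm38.p6, 250 bases before to 50 after each start, 29396 windows on 18 chromosomes), 293 windows held a Foxa1 summit, 274 a Foxa2 summit and 131 a summit of each. The forkhead word TGTTTAC was searched on both strands, as were its variant with A in the second place (TATTTAC) and its variant with G in the place before the last (TGTTTGC). Words on opposite strands can share bases, and a window with several words counts once. At least 1 of the 3 occurred in 11.2% of all windows, in 50.4% (interval 41.5 to 59.2%) of windows with summits of both factors, in 29.6% (22.7 to 37.3%) with a Foxa1 summit alone and in 39.2% (31.1 to 47.7%) with a Foxa2 summit alone. TGTTTAC by itself was in 3.60% of all windows and in 24.4% (17.3 to 32.7%) of those with both summits. In the 66 windows that had both summits and a word, the nearest word lay a median of 78 bp from the Foxa1 summit and 77 bp from the Foxa2 summit, and the summits lay 65 bp apart. Both summits and the word had to lie in the same window, which bounds these distances, and no baseline for them was computed. The Foxa1 summit was the nearer in 24 of these windows, the Foxa2 summit in 40, with 2 ties. Within 50 bp of a word the order was the other way, with 40.9% of Foxa1 and 34.8% of Foxa2 summits. A match is a description of letters and does not show a bound site.

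Below, 6 of these windows show where the summits of both factors fell relative to the letters. They were chosen after their values were seen: the 3 strongest at protein-coding genes with a paired summit of each factor, the one inside a wide Foxa1 region beside the Foxa2 gene, and the strongest with a summit of 1 factor alone. Each is the 250 bases before the start, 5′ to 3′ along the gene's strand, with forkhead words of either strand in capitals and positions counted from 1 at the first base shown. Lin52, a subunit of a cell cycle repressor complex, is at chr12:84451258-84451507 (plus strand). Myt1, a neural zinc finger factor, is at chr2:181766779-181767028 (plus). Hspbp1, a regulator of the chaperone Hsp70, is at chr7:4684982-4685231 (minus). The transcript 9030622O22Rik, beside Foxa2, is at chr2:148040349-148040598 (minus). Vkorc1, the vitamin K epoxide reductase, is at chr7:127895618-127895867 (minus) and had a Foxa1 summit alone. Oas1g, an interferon-induced synthetase gene, is at chr5:120887614-120887863 (minus) and had a Foxa2 summit alone.
Lin52: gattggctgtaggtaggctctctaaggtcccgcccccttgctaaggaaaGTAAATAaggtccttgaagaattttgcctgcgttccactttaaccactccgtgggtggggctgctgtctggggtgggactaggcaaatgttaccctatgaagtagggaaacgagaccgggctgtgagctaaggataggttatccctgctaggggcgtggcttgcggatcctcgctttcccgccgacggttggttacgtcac
Myt1: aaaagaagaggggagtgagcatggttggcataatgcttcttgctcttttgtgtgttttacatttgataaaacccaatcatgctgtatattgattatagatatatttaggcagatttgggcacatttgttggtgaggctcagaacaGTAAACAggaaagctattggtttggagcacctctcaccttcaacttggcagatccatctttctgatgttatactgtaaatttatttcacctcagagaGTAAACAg
Hspbp1: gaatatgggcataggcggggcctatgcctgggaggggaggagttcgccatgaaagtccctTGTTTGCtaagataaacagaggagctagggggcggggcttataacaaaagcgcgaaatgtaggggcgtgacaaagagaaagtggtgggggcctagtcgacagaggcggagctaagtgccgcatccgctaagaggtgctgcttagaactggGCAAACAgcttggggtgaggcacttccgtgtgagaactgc
9030622O22Rik: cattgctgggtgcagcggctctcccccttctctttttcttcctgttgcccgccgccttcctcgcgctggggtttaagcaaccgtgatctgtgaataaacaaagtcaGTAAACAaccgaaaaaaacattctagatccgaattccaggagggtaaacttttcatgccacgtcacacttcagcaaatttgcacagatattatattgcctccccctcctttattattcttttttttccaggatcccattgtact
Vkorc1: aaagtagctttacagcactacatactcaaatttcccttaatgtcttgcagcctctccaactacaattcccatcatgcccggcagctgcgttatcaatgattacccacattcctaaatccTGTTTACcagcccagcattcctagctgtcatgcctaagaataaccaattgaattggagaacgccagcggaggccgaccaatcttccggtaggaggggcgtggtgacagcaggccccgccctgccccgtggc
Oas1g: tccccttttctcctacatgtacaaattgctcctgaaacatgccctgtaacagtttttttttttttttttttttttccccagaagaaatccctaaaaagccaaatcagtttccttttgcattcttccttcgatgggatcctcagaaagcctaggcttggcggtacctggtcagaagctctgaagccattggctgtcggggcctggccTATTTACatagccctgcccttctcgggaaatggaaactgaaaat

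In Lin52 the Foxa1 summit was at position 52 and the Foxa2 summit at position 78, against a word centred at 53. The Foxa1 region there had a fold enrichment of 8.28 and the Foxa2 region 8.36. In Myt1 the Foxa1 summit at position 166 lay 17 bp from the first word, and the Foxa2 summit lay past the last base shown, 30 bp from the second word. The summits of the Myt1 pair were 110 bp apart and each was nearer to a different copy of the same word. In Hspbp1 the Foxa2 summit lay 38 bp and the Foxa1 summit 75 bp from a word. In 9030622O22Rik the Foxa1 summit was 33 bp and the Foxa2 summit 85 bp from the word. The Vkorc1 Foxa1 summit lay 95 bp and the Oas1g Foxa2 summit 9 bp from the word in their windows.

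To compare the factors site by site, each region was joined to the overlapping region of the other list whose summit was nearest, and the 21367 pairs in which this choice was mutual were kept, so that no region entered more than once. These pairs held 59.97% of the Foxa1 and 61.5% of the Foxa2 list. Regions with any overlap numbered 22603 for Foxa1 and 24215 for Foxa2. Among the 19 chromosomes the overlapping share of Foxa1 regions ran from 61.5% on chromosome 4 to 65.3% on chromosome 15. Counted in bases, 13.3 Mb were covered by both factors, 61.9% of the 21.4 Mb under Foxa1 and 73.1% of the 18.1 Mb under Foxa2.

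Summits of a pair lay close together, in part by construction, since pairs had to overlap and were chosen for the nearest summit. The median distance was 90 bp (interval 88 to 92), the quartiles were 34 and 175 bp, and 54.0% of pairs were within 100 bp and 80.1% within 200 bp. In 165 pairs both summits fell on the same base. Each summit lay inside the other factor's region in 77.1% of pairs, and in 996 pairs both summits lay outside it. Sides were balanced along the chromosome: the Foxa2 summit had the higher coordinate in 50.1% of pairs.

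Distances shrank with strength. Pairs were put in 10 equal classes by the mean of their percentiles of fold enrichment, each percentile taken within its own list with 100 as the strongest. The median distance was 92 bp in the weakest class, 109 bp (103 to 116) in the next and 53 bp (50 to 56) in the strongest, where 91.2% of pairs were within 200 bp. The strongest pairs had the shortest distances although their regions were the widest. Divided by the width of the narrower region, the median distance was 0.414 in the weakest class, 0.452 in the next and 0.0369 in the strongest. Position relative to genes made little difference: the median was 90 bp in the 1037 pairs within 1 kb of a transcription start and 89 bp in the 7421 pairs over 50 kb from one.

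**Figure D1:**
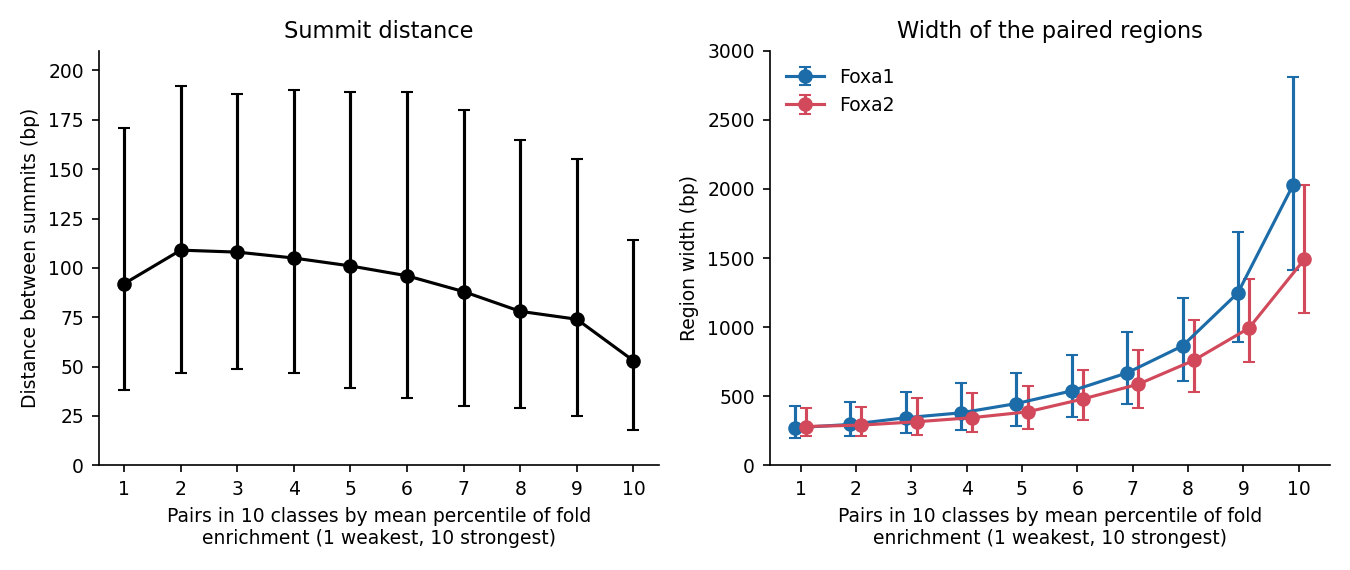
Left, distance between the Foxa1 and Foxa2 summits of a pair (bp); right, width of the paired regions (bp) for Foxa1 (blue) and Foxa2 (red), over 10 classes of pairs from weakest to strongest by mean percentile of fold enrichment; points are medians and bars run from the lower to the upper quartile. The median distance falls to 53 bp in the strongest class while median widths rise to 2031 bp for Foxa1 and 1490 bp for Foxa2.

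The largest distances were in wide regions. Among the 10021 pairs with both regions at a -log10 q of 5 or more, the farthest summits lay 2914 bp apart in a stretch with no protein-coding gene within 100 kb, where the Foxa1 region (chr5:119110696-119115335) and the Foxa2 region (chr5:119110679-119115319) had nearly the same borders. Their fold enrichments were 8.45 and 4.34, so the factors peaked at different places in a shared stretch, with percentiles of 97.2 for Foxa1 and 68.6 for Foxa2. In Tenm4, a teneurin of neuronal adhesion, the summits lay 2315 bp apart (Foxa1 region chr7:96806670-96810681). In Prkab1, a subunit of the energy sensor AMPK, they lay 2130 bp apart (Foxa1 region chr5:116019777-116023481), with folds of 8.70 for Foxa1 and 8.13 for Foxa2. Distances of 1687 bp 9.23 kb from Dgkg, a diacylglycerol kinase gene, and 1519 bp in Stxbp5, the tomosyn gene, followed.

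Foxa1 regions were the wider ones. In pairs the median width was 562 bp for Foxa1 and 496 bp for Foxa2, the median ratio of Foxa2 to Foxa1 width was 0.884 (interval 0.878 to 0.891), and Foxa1 was wider in 60.8% of pairs. The gap grew with strength, from a ratio of 1.02 in the weakest class (272 and 281 bp) to 0.769 in the strongest (2031 and 1490 bp), where Foxa1 was wider in 83.4% of pairs. Foxa1 was at least 2 times wider in 3132 pairs and Foxa2 in 1702. Regions over 2 kb made up 4.67% of the Foxa1 list (1665 regions) and 2.24% of the Foxa2 list (778). Width depends on depth, fragment length and the caller's merging as well as on binding, and the part of these in the difference was not tested.

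Wide Foxa1 regions often spanned several Foxa2 regions. A total of 2551 Foxa1 regions overlapped 2 or more Foxa2 regions and 1383 Foxa2 regions overlapped 2 or more Foxa1 regions. The median widths of these were 1643 and 977 bp. The width ratio was 0.915 in the 17570 pairs without such splitting, 0.505 in the 2442 pairs where 1 Foxa1 region met several Foxa2 regions, and 1.80 in the 1264 pairs of the opposite kind. At most 7 Foxa2 regions fell in 1 Foxa1 region, in Setd4, a methyltransferase gene (chr16:93587040-93591838), and 85.4 kb from Id2, an inhibitor of basic helix-loop-helix factors (chr12:25176654-25183176), both named after their values were seen.

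Most extremes of width were pairs with such splitting, the one in Negr1 being an exception. In Hivep3, a zinc finger gene, a Foxa1 region of 2604 bp (chr4:120066532-120069135) was paired with a Foxa2 region of 226 bp, and it overlapped 3 Foxa2 regions. At 2.36 kb from the Foxa2 gene a Foxa1 region of 2905 bp (chr2:148038405-148041309) was paired with a Foxa2 region of 269 bp, 10.8 times narrower, and overlapped 2 Foxa2 regions. The 9030622O22Rik window printed above lies in it. Pairs near Bcl2l11, which encodes the pro-apoptotic protein Bim, in Usp12, a deubiquitinase gene, and in Rnf19a, a ubiquitin ligase gene, had Foxa1 regions 9.84, 9.77 and 9.74 times the width of Foxa2. On the other side a Foxa2 region of 1946 bp in Cdk6, a cyclin-dependent kinase of the G1 phase (chr5:3516619-3518564), was paired with a Foxa1 region of 152 bp and overlapped 3 Foxa1 regions. Near Noc4l, in Rims2 and in Negr1, the Foxa2 region was 10.9, 7.78 and 7.77 times wider, and in Wdfy2 it was 6.97 times wider.

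Ranks of the regions of a pair went together. Fold enrichment is the authors' ratio at the summit over local background. Pairs were compared by its percentile, and folds printed side by side each keep the scale of their own list. Over the pairs the Spearman correlation was 0.67 for fold enrichment, 0.70 for -log10 q and 0.69 for width, given as descriptions without p, since pairs of 2 libraries share mappability and chromatin. The median difference in percentile, Foxa2 minus Foxa1, was -0.47 points with quartiles of -12.9 and 10.8, and 65.0% of pairs were within 20 points. Pairs with both regions in the top 10% by fold numbered 2539, which is 71.5% of the Foxa1 and 73.9% of the Foxa2 regions of pairs that reach it. For the top 1% there were 240, or 68.8% and 71.6%. Percentiles are coarse among weak regions, since 1289 Foxa1 regions shared 1 fold value and 1673 Foxa2 regions another.

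**Figure D2:**
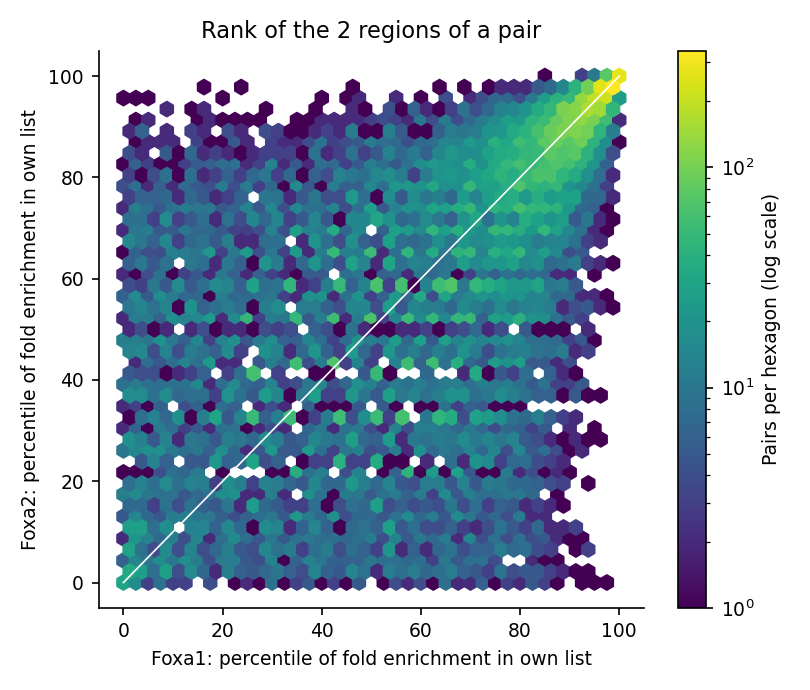
Percentile of fold enrichment of the Foxa1 region (horizontal) against that of the Foxa2 region (vertical) for the 21367 pairs, each within its own list, with colour for the number of pairs per hexagon on a log scale and a white line of equality. Pairs crowd along the line near 100 and spread over the plane below about 60, and the gaps in rows and columns are tied fold values.

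The strongest pairs were selected for high rank in both lists, which fixes their like percentiles. The first was 7.98 kb from BC035044 (Foxa1 chr6:128838671-128841431, Foxa2 chr6:128838881-128841427), with fold enrichments of 18.6 and 19.8 and summits 24 bp apart. The widest Foxa1 region of all, 8671 bp (chr2:178657275-178665945), was paired with a Foxa2 region of 4676 bp and summits 3 bp apart, with no protein-coding gene within 100 kb. A region 35.9 kb from Chd6, a chromatin remodeller gene, had folds of 17.0 for Foxa1 and 20.8 for Foxa2 (Foxa1 chr2:161142401-161147445), the latter being the highest in the Foxa2 list. The remaining pairs of the top 5 were also over 100 kb from a protein-coding gene (Foxa1 chr17:75875863-75879317 and chr1:75691048-75696265).

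Some strong pairs had unlike rank by fold enrichment. Of the 10021 pairs with both regions at a -log10 q of 5 or more, 90.6% were within 20 points. The extremes are named here. That limit was reached by 15247 Foxa1 and 15013 Foxa2 regions, so both partners were in the stronger part of their list by -log10 q. The Foxa2 region in Ampd2 had 8.66 and the Foxa1 region in Cplx2 had 7.03. In Spns2, a sphingosine 1-phosphate transporter gene, the Foxa1 region (chr11:72466173-72468319) stood at percentile 91.4 with a fold of 6.01, and its Foxa2 partner at 25.5 with 3.17. In Ampd2, an AMP deaminase gene, the percentiles were 81.6 and 17.2, and 57.4 kb from Adtrp they were 94.0 and 27.5. The opposite held in Gm38469, where Foxa1 stood at 21.0 and Foxa2 (chr15:96270142-96272680) at 95.5 with a fold of 7.91. In Cplx2, which encodes a regulator of synaptic vesicle release, the values were 12.7 for Foxa1 and 78.8 for Foxa2, and in Pex7, a peroxisomal import receptor gene, 19.8 and 84.0. The other 4 pairs that the rule selects had no protein-coding gene within 100 kb.

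Regions listed for 1 factor alone were placed differently around the other factor. The 13027 Foxa1 regions without overlap had a median gap of 854 bp to the nearest Foxa2 region, and 53.7% (52.8 to 54.5%) were within 1 kb of one. For the 10514 Foxa2 regions without overlap the gap was 2912 bp and the share 38.2% (37.3 to 39.1%). At a -log10 q of 5 or more the shares were 57.8% of 1810 Foxa1 regions and 36.5% of 1406 Foxa2 regions. More than 10 kb away were 20.9% of the Foxa1 and 37.4% of the Foxa2 regions. Foxa1 regions were also more clustered among themselves, with 36.4% of neighbouring Foxa1 regions under 1 kb apart against 29.5% for Foxa2. With regions less than 1 kb apart joined, 75.2% of 22654 Foxa1 stretches and 71.5% of 24476 Foxa2 stretches met the other factor, so that the order of the overlap shares turned round.

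The strongest lone regions of each factor also varied in this respect. Those of Foxa1 in Tacc2 and 47.7 kb from Kcnh5 lay 0.560 and 0.160 kb from a Foxa2 region, the one in Gfra1 lay 4.20 kb away, and the one 11.9 kb from Six3, an eye and forebrain homeobox gene (chr17:85637660-85638175), lay 242 kb from any. That of Foxa2 near Prkch lay 0.322 kb from a Foxa1 region, those near Ppfia2 and in Stk4, a Hippo pathway kinase gene, 18.5 and 33.5 kb away, and the one in Dpyd (chr3:118991781-118992086) 94.6 kb away. The fifth Foxa1 region, with no gene within 100 kb (chr4:82065361-82066495), lay 6.94 kb from Foxa2.

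All classes had like distances to transcription starts: 5.05% (4.76 to 5.35%) of paired and 4.68% (4.32 to 5.06%) of lone Foxa1 regions were within 1 kb of one, and for Foxa2 4.86% (4.59 to 5.14%) and 5.17% (4.75 to 5.62%). Of the pairs, 43.6% overlapped a Foxa1 region of the 2-week library, against 21.2% of lone Foxa1 and 24.5% of lone Foxa2 regions. Lone regions were weaker, with median percentiles of fold enrichment of 31.9 for Foxa1 and 29.2 for Foxa2. They were also narrower, with median widths of 224 bp for Foxa1 and 217 bp for Foxa2, against 562 bp for the Foxa1 regions of pairs. The part of strength and width in the difference in overlap with the 2-week library was not tested.

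For genes, a region counted toward every protein-coding gene body around its summit and, failing that, toward the nearest gene end up to 100 kb away. Such an assignment does not identify the gene that a region controls. Of 8267 genes with a region, 6652 had both factors, 637 Foxa1 alone and 978 Foxa2 alone. Genes of 1 factor alone were sparsely occupied, with at most 4 Foxa1 and 5 Foxa2 regions. Foxa1 regions outnumbered Foxa2 in 2850 genes (34.5%), Foxa2 outnumbered Foxa1 in 2959 (35.8%), and the median difference was 0. At least 5 more Foxa1 regions were found in 168 genes (2.03%) and at least 5 more Foxa2 regions in 82 (0.992%). With regions less than 1 kb apart joined these counts were 6 and 40, so their order depends on how a cluster is counted. Bases covered do not count regions, but they still depend on how far the caller merged neighbouring signal into 1 region. At least 2 kb more was covered by Foxa1 in 487 genes (5.89%) and by Foxa2 in 10 (0.121%). The Foxa1 list covered 1.18 times as many bases in all, and after scaling to equal totals the numbers were 144 and 59.

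**Figure D3:**
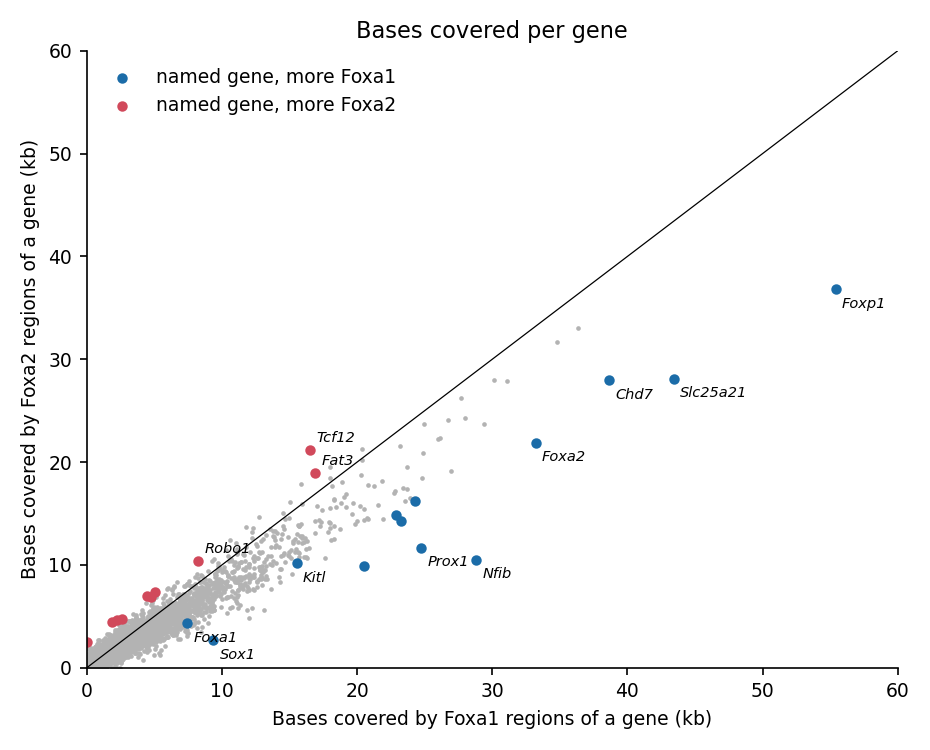
Kilobases covered by Foxa1 (horizontal) and Foxa2 (vertical) regions in each of 8267 protein-coding genes (grey), with the genes named for the largest differences in bases, and Sox1, Kitl and Foxa1, in blue where Foxa1 covered more and in red where Foxa2 did; the line marks equality. Nfib and Foxp1 lie farthest below the line, with 28833 and 55404 bases of Foxa1.

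Nfib, a nuclear factor I gene (chr4:82290173-82506751), had the largest excess of Foxa1 regions, 40 against 23, and 28833 against 10519 bases. Of the Foxa1 regions at Nfib 21 had no Foxa2 overlap, whereas 1 Foxa2 region had no Foxa1 overlap. Its 18 pairs were weak by fold, with medians of 2.91 for Foxa1 and 2.86 for Foxa2 (percentiles 21.5 and 10.7). Their -log10 q nevertheless reached 30.3 for Foxa1 and 16.3 for Foxa2. Joined, the counts were 17 and 15, while the bases of the regions as listed were 2.74 times apart. Sox1, which encodes a factor of neural progenitors (chr8:12395519-12399555), had 21 Foxa1 and 7 Foxa2 regions, 9 and 6 when joined, and 9362 against 2708 bases. Its strongest site, about 11 kb before the start, was shared, with folds of 7.59 for Foxa1 and 10.2 for Foxa2. Around it 16 Foxa1 regions stood alone, with -log10 q up to 7.94. At Sox1 the excess was therefore made of regions weaker than the shared site.

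Prox1, a homeobox gene of neural, hepatic and lymphatic fate (chr1:190118035-190170827), showed the contrast of width. It had 35 Foxa1 and 28 Foxa2 regions, 9 and 12 when joined, and 24750 against 11680 bases. The Foxa1 region 39.99 to 44.06 kb after the start (fold 8.18) met a Foxa2 region from 40.2 to 41.5 kb (fold 5.04). Another Foxa1 region, from 121 to 124 kb, met 4 Foxa2 regions. Kitl, the gene of the KIT receptor's ligand (chr10:100015615-100100416), had 27 and 14 regions but 10 and 10 when joined, and 17 of its Foxa1 regions against 2 of Foxa2 were alone. Its pairs were balanced in rank, with a median difference of -0.44 points over 10 pairs. Btg2, an antiproliferative gene induced by p53, had 20 and 9 regions and 3 and 3 joined.

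**Figure D4:**
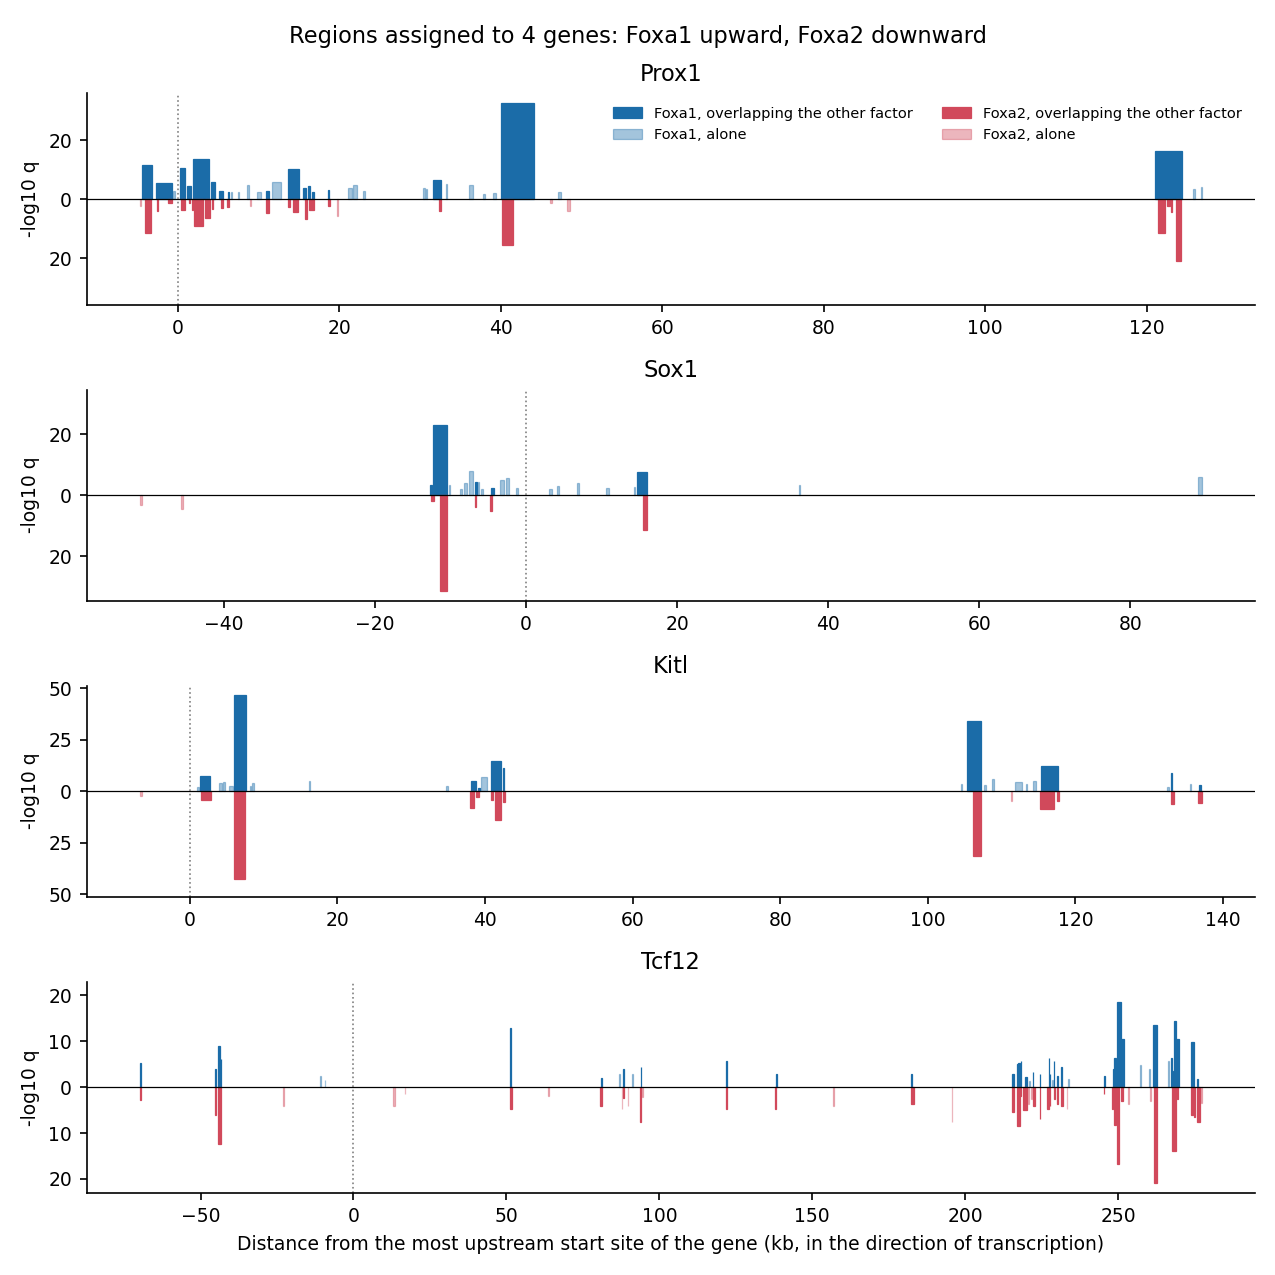
Regions assigned to Prox1, Sox1, Kitl and Tcf12 by distance from the most upstream start site of each gene (kb, in the direction of transcription, dotted line at the start), drawn at their width with -log10 q as height, Foxa1 upward in blue and Foxa2 downward in red; pale bars had no overlap with the other factor. At Sox1 16 of 21 Foxa1 regions are pale, and at Tcf12 35 of 45 are dark; heights come from separate lists and are not on a common scale of depth.

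The remaining genes with the largest excess of Foxa1 regions were Sipa1l3 (28 and 12), the mitochondrial carrier gene Slc25a21 (62 and 47), the lipid kinase gene Pip5k1b (37 and 25), the forkhead gene Foxp1 (90 and 79), the exchange factor gene Iqsec1 (24 and 13) and the tRNA-modifying gene Cdkal1 (47 and 37). Joining brought Foxp1 to 35 and 41, Iqsec1 to 10 and 10 and Cdkal1 to 24 and 24. At a -log10 q of 5 or more Iqsec1 had 6 and 6 and Btg2 5 and 5. In bases, Foxp1 had 55404 under Foxa1 and 36788 under Foxa2, Slc25a21 43453 and 28114, the chromatin remodeller gene Chd7 38616 and 27956, and the Golgi mannosidase gene Man2a1 20522 and 9886. Tubgcp3 of the gamma-tubulin complex had 23259 and 14303, Arhgap26 24314 and 16248, and Slc22a23 22862 and 14867. Of the 168 genes with at least 5 more Foxa1 regions, 167 also had more bases under Foxa1 and 154 did after scaling, but 66 kept the direction of their counts both with joining and among regions at a -log10 q of 5 or more.

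The largest excess of Foxa2 regions was at Cacna1c and Cdh13. Cacna1c, the pore subunit of an L-type calcium channel (chr6:118587240-119197384), had 10 Foxa1 and 20 Foxa2 regions, with 9270 and 10415 bases, and 13 of its Foxa2 regions were alone. Cdh13, a cadherin held by a lipid anchor, had 35 and 45, Ank3, which encodes ankyrin G, 19 and 28, the vesicle protein gene Ptprn2 17 and 26, Sox5 33 and 42, and the teneurin gene Tenm2 31 and 40. Adcy2, an adenylyl cyclase gene, had 12 and 20, Agbl1 5 and 13, the flippase gene Atp8a2 6 and 14, and Auts2 43 and 51. Joined counts kept Foxa2 ahead in each of these 10 genes, with 8 and 12 in Cacna1c and 19 and 31 in Tenm2. At a -log10 q of 5 or more 4 of the 10 lost it: Cacna1c had 6 and 6, Cdh13 17 and 17, Atp8a2 4 and 4, and Sox5 14 and 13. Bases did not always follow, since Foxa1 covered more of Cdh13 (27669 against 26196), Tenm2, Adcy2 and Auts2. Of the 82 genes with at least 5 more Foxa2 regions, 46 had more bases under Foxa2, 71 after scaling, and 45 kept the direction of counts under both joining and the higher q.

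Bases favoured Foxa2 most at Tcf12, an E protein gene of the basic helix-loop-helix class (chr9:71844252-72111893), with 16534 under Foxa1 and 21141 under Foxa2 from nearly equal numbers of regions, 45 and 47. The median width ratio of its 31 pairs was 1.29. At a -log10 q of 5 or more Tcf12 turned to Foxa1, with 19 and 14 regions and a difference of -914 bases, Foxa2 minus Foxa1, and Tacc2 turned likewise with -825. Several Foxa2 regions of Tcf12 shared a -log10 q of 4.82, just below that limit, so its turn depends on where the limit is set. Sipa1l1 had 4432 and 6985 bases, Gtdc1 1881 and 4411, Tmem178b 2240 and 4677, the growth arrest gene Gas7 5037 and 7363, the myosin phosphatase subunit gene Ppp1r12a 2600 and 4762, Tacc2 4727 and 6839, the axon guidance receptor gene Robo1 8258 and 10364, and the atypical cadherin gene Fat3 16897 and 18929. Bcdin3d, an RNA methyltransferase gene, had 4 Foxa2 regions over 2543 bases and was listed at 0 for Foxa1.

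The pairs gave a measure of relative strength that does not depend on how many regions are called around a gene. In the 1083 genes with at least 5 pairs, the median percentile difference of a gene had a median of -0.68 and quartiles of -5.37 and 3.02. It reached 20 points toward Foxa1 in 35 genes (3.23%) and toward Foxa2 in 29 (2.68%), and all 64 kept their sign when ranked by -log10 q. The threshold of 10 points, added after the data were seen, gave 10.9% toward Foxa1 and 8.22% toward Foxa2.

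Relative strength turned toward Foxa1 most at Synm, the gene of the intermediate filament protein synemin (chr7:67730161-67759742), by -45.5 points over 6 pairs. At Six4, a homeobox gene (chr12:73099609-73114031), the Foxa1 percentiles of the 5 pairs were 87.7, 64.8, 59.1, 78.8 and 95.2 and those of Foxa2 were 22.9, 11.5, 16.2, 59.3 and 85.6. Foxa1 was thus the higher in each of the 5, by a median of 42.9 points. Trp73, a relative of p53, had -35.9, with Foxa1 higher in all 5 pairs, yet its strongest pair was level at 92.6 and 91.6. Others were Pdp1 (-37.6), the non-muscle myosin gene Myh9 (-35.1), Prkar2b (-33.8), Fbxo47 (-31.8), Sorbs2 (-29.6) and Plekhh2 (-29.2).

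Toward Foxa2 the largest value was at Slc15a1, an oligopeptide transporter gene (chr14:121459621-121505254), with 41.6 points over 5 pairs. At Clic4, a chloride intracellular channel gene (chr4:135213969-135272760), the Foxa1 percentiles were 84.3, 62.7, 48.8, 18.2 and 18.2 and those of Foxa2 were 87.8, 84.7, 86.3, 59.3 and 65.3, higher in all 5 pairs. Ubl3, a ubiquitin-like gene, had 32.3 points with Foxa2 higher in 7 of 7 pairs, although its strongest pair was level at 95.7 and 96.9. Lonrf1 (38.7, but 10.3 when ranked by -log10 q), Enthd1 (36.8), 1810046K07Rik (34.8), Tmem178b (30.99), the muscarinic receptor gene Chrm3 (30.4), Dnah9 (29.6) and Creb3l2 (27.0) followed. At Trp73 and Ubl3 the points thus came from the weaker pairs. Pairs high in both lists, however, have little room to differ in percentile. Over all pairs the median absolute difference was 1.31 points in the strongest class and up to 33.1 in weaker classes. The strongest Ubl3 pair had folds of 7.49 for Foxa1 and 8.71 for Foxa2. The percentiles therefore cannot show whether the strongest pairs of these genes differed less in binding.

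By the rank of their pairs, the genes of the factors themselves both leaned toward Foxa1. At Foxa1 (chr12:57540628-57548029) there were 10 Foxa1 and 11 Foxa2 regions, 8 pairs and a median difference of -21.0 points. The fold enrichments of these 8 pairs, as Foxa1 then Foxa2, were 3.93 and 2.59, 4.17 and 3.34, 3.64 and 3.18, 4.73 and 3.96, 4.43 and 3.96, 2.50 and 2.46, 3.58 and 3.96, and 3.73 and 4.38. At a -log10 q of 5 or more, 7 of the Foxa1 and 1 of the Foxa2 regions remained. Several of the Foxa2 regions left out shared a value of 4.82, just below that limit. Joined counts went the other way, with 4 for Foxa1 and 7 for Foxa2. At Foxa2 (chr2:148042877-148046969) there were 51 and 41 regions and 33211 and 21909 bases. Of its 26 pairs 21 ranked higher for Foxa1, with a median of -15.6 points, while joined counts were 18 and 24.

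Among the gene lists with a member of at least 5 pairs, epithelial and pioneer transcription factors had the lowest median of relative strength. Of 20 genes, 19 had a region, 10 had more Foxa1 and 7 more Foxa2 regions (217 and 172 regions in all, 101 and 109 joined). In the 8 with at least 5 pairs the median was -14.7 points, against -0.68 for all such genes, and 6 of 8 were at -10 or below, by fold and by -log10 q alike. The epithelial factor gene Grhl2 had -21.6, Klf5, a factor of epithelial proliferation, -18.6 with Foxa1 higher in 8 of 8 pairs, the nuclear factor I gene Nfix -13.8, Tfap2a, which encodes AP-2 alpha, -10.8 with Foxa1 higher in 8 of 9, and Nfib -8.18. Of these 8, Ehf was the exception at 1.72 by fold, and by -log10 q it had -3.03. Members with fewer pairs went both ways, such as Nfia at 19.3 and Klf4 at -2.98, over 4 pairs each. Over 1 pair each, Grhl1 had 55.1 and Gata2 48.9, against -37.3 for Elf5. At Grhl2 the strongest Foxa1 region was level with Foxa2 (percentiles 99.3 and 99.2), whereas the next by fold stood at 97.7 against 62.7. Another strong pair there was level, at 94.7 and 95.4, but pairs high in both lists have little room to differ in percentile. The 8 members include Foxa1 and Foxa2, and the list was chosen with results of these data known.

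**Figure D5:**
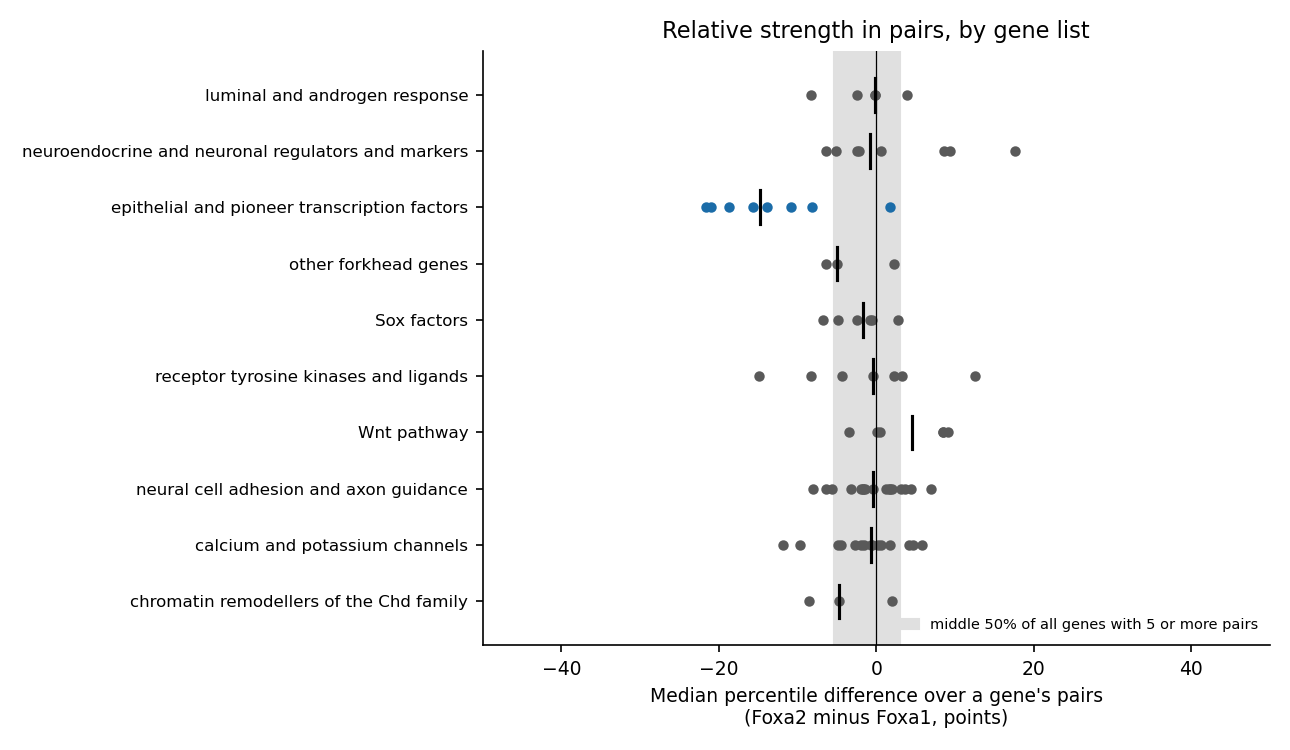
Median percentile difference (Foxa2 minus Foxa1, in points) over the pairs of each gene with at least 5 pairs, for lists with 3 or more such genes; dots are genes, vertical ticks are list medians and the grey band holds the middle 50% of all such genes. In the blue list of epithelial and pioneer factors 7 of 8 genes are below 0, and the other lists scatter around the band.

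Luminal genes had more Foxa1 regions but equal strength. Of 12 with a region, 9 had more Foxa1 and 2 more Foxa2, against 34.5% and 35.8% of all genes, with sums of 94 and 61. Abcc4, a prostaglandin and nucleotide exporter gene, had 30 and 21 regions and Cd24a, a surface sialoglycoprotein gene, 16 and 8. Joined, the list's sums were 50 and 44, Abcc4 had 14 and 14 and Cd24a 6 and 7. The median strength over 5 members was -0.21 points. Tmprss2, the androgen-driven protease gene, had 11 and 7 regions, with Foxa1 higher in 5 of 6 pairs (-8.31 points).

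Neuroendocrine and neuronal genes behaved likewise in number: 14 of 20 had more Foxa1 and 4 more Foxa2 regions, with 186 and 160 in all and 98 and 97 joined. Beside Prox1, the stem cell factor gene Sox2 had 18 and 11 and the adhesion gene Ncam1 15 and 10, whereas Snap25, a component of the synaptic fusion machinery, had 23 and 28 and the calcium sensor gene Syt1 29 and 34. At a -log10 q of 5 or more Ncam1 turned to 3 and 6, Snap25 turned to 14 and 9, and Syt1 had 14 and 14. Chga, the gene of the granule protein chromogranin A, had 8 and 7 regions and 9.43 points over 6 pairs, 3 each way, but -0.13 points when ranked by -log10 q.

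The lists that follow are to be read against the 34.5% of all genes with more Foxa1 and 35.8% with more Foxa2 regions. Of 18 receptor tyrosine kinase and ligand genes, 10 (55.6%) had more Foxa1 and 4 (22.2%) more Foxa2 regions; beside Kitl these were Erbb4 (13 and 7) and Igf1r (24 and 18). Of 21 Wnt genes, 9 had more Foxa1 and 7 more Foxa2, and the 6 with enough pairs had the highest median of any list with at least 3 such genes, 4.48 points by fold and 2.02 by -log10 q, where other forkhead genes stood higher at 4.94. Lgr4, an R-spondin receptor gene, had 23 and 18 regions and 8.53 points, Ctnnb1, which encodes beta-catenin, 8 and 10 regions and 9.09 points, and Wnt11 1 and 5 regions. Of 12 Sox genes 8 had more Foxa1 and 2 more Foxa2, and of 14 other forkhead genes 9 and 2, including Foxc1 (5 and 3). Joining turned the order of the sums in these 3 families: kinases and ligands went from 154 and 124 to 83 and 88, Sox genes from 148 and 130 to 85 and 87, and other forkhead genes from 178 and 159 to 88 and 102.

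Neural adhesion and guidance genes were near the shares of all genes, with more Foxa2 in 11 of 25 (44%) and more Foxa1 in 9 (36%); their sums were 432 Foxa1 and 461 Foxa2 regions, but 260 and 239 kb; Cadm1 had 32 and 39 and Sema5a 5 and 11. Calcium and potassium channel genes were also near them, with more Foxa2 in 9 of 21 and more Foxa1 in 8, sums of 254 Foxa1 and 266 Foxa2 regions, but 120 and 102 at a -log10 q of 5 or more and 154 and 136 kb; Kcnh5 had 15 and 20. Of 7 Chd genes, 3 had more Foxa1 and 1 more Foxa2, with Chd6 at 10 and 15, Chd2 at 15 and 11 and Chd7 at 77 and 73. Endodermal targets of Foxa had 29 regions of each factor, with Cdx2 at 5 and 1 and the transthyretin gene Ttr at 2 and 5. Tumour suppressors had 6 genes each way, with Cdkn2b at 4 and 11 and Cdkn1b at 8 and 4. Mesenchymal transition genes had 44 and 38 regions (25 and 27 joined), Cdh1, the E-cadherin gene, 13 and 9. Basal genes had 39 and 44, the cytolinker gene Dst 8 and 12 and the integrin gene Itga6 13 and 16. Stromal markers had 6 and 11 (Acta2 and Des 1 and 3 each), endothelial markers 45 and 42 (Flt1 4 and 1, Vwf 14 and 17) and immune markers 1 and 0 (Ptprc). The part of other cell types in the differences above was not tested.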

How the data were processed

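Per the labels' protocols, chromatin from 3 prostates was immunoprecipitated and sequenced as paired reads. The submitters' processing notes name the build mm10 and, with no role or parameters, MACS2 2.1.1, DiffBind 2.12.0, Trim Galore 0.5.0, Bowtie2, HOMER, deepTools 3.2.1 and bedtools 2.25.0. The deposited lists have the narrowPeak layout, 1 library each, with the authors' fold enrichment (a ratio), -log10 p-value and -log10 q-value, a score that follows the -log10 q in the deposited files, and a summit. Whether input served as control is not given.

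Regions on the chromosomes 1 to 19 were used, with an overlap of at least 1 bp. Computation used Python 3.11.15, numpy 2.4.6, pandas 2.3.3, scipy 1.17.1 and matplotlib 3.10.9. Overlaps equalled those of bedtools 2.31.1. Pairs were planted by copying Foxa1 regions and moving their summits, and 17815 of 17815 were recovered. The choice among several overlapping regions was not checked in this way. For Foxa1 regions, 2000 of 2000 gene assignments equalled a direct search. Shares have exact Clopper-Pearson and medians order-statistic intervals. Genes and promoters came from RefSeq tables of GRCm38.p6, whose coordinates are those of mm10; promoter windows on 18 chromosomes were used. Named were the 5 strongest pairs, the 5 most extreme pairs each way in rank and width and the 5 in distance (-log10 q of at least 5), the 5 strongest lone regions of each factor, the 10 genes each way by number, bases and rank, 2 to 4 members per list, and Foxa1 and Foxa2. Some items that these rules select are left out of the text. Members, 18 lists of 341 genes and rules were chosen with earlier results of these data known. Alternatives changed the q, fold and overlap limits, the pairing, the gene window, list length and joining. Input libraries and the 2-week Foxa2 list were not used here.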

Additional observations from a re-analysis of the deposited data

How the results depend on the processing

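Alternatives were of 2 kinds, other limits on regions and other ways of pairing or counting. Overlapping shares of Foxa1 and Foxa2 regions were 68.6% and 72.9% at a -log10 q of 5 or more, 82.4% and 65.1% at a fold enrichment of 5 or more, 41.0% and 42.0% with a reciprocal overlap of 50%, and 75.2% and 71.5% when neighbours under 1 kb apart were joined. The last of these, the scaling of bases and the rank by -log10 q were added after the data were seen. The order of the shares was reversed with the fold limit and with joining. The fold limit kept 5388 Foxa1 and 7003 Foxa2 regions, so its shares have unlike denominators. Including X and Y gave 63.4% and 69.7%.

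The median summit distance, the width ratio and the rank correlation were 98 bp, 0.914 and 0.63 with each Foxa1 region and its nearest Foxa2 summit, 108 bp, 0.914 and 0.53 with the first overlapping region, 81 bp, 0.916 and 0.73 with a reciprocal overlap of 50%, and 78 bp, 0.851 and 0.70 at a -log10 q of 5 or more. The ratio was below 1 in each.

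Genes with at least 5 more Foxa1 or Foxa2 regions numbered 23 and 8 at a -log10 q of 5 or more, 6 and 40 with joining, 122 and 51 with gene bodies only, 141 and 98 with lists of equal length and 141 and 67 within 20 kb. Genes with at least 2 kb more numbered 144 and 59 after scaling and 451 and 15 at the higher q. Genes by rank numbered 34 and 24 with -log10 q. The cause of these shifts was not tested. Depth is unknown, so weak regions listed for 1 factor cannot be told from a difference in threshold. No paired analysis was possible because each group had 1 library.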
